A study of Mus musculus with 13 samples.

Results

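Cytokines carry messages between the cells of the immune system. Interleukins and interferons are secreted or released proteins that bind receptors on nearby cells and switch on kinases and transcription factors there. Type I interferons defend cells against viruses, and the interleukins of helper T cells steer the responses of other lymphocytes. The genes examined here were the autosomal protein-coding genes for these ligands, without their receptors. They were chosen by symbol, as *Il* with digits and at most 1 letter from *a* to *f* or *n*, or as *Ifna*, *Ifnb*, *Ifne*, *Ifng*, *Ifnk*, *Ifnl* and *Ifnz*. The rule found 52 genes among 21397 autosomal protein-coding genes that could be placed.

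Sat4C is a chromosome conformation capture assay that uses the major satellite repeat of mouse centromeres as its viewpoint. It marks DNA that lay close to a chromocenter, the body in the nucleus where the repeats of several centromeres meet. The study called pericentromere-associated domains (PADs) and the non-PADs between them in thymus tissue of 3 adult male C57BL/6 mice, in IB10 (129/Ola) embryonic stem cells (ESCs, 3 replicates), in neural precursor cells (NPCs, 2 replicates) derived from these ESCs and in astrocytes (ACs, 2 replicates) derived from the NPCs. Thymus tissue is a mixture of cells, mostly developing T cells, whereas the other samples are cultures of 1 cell line. Strain, culture and cell type therefore differ together between thymus and the rest. So does the sequencing, since each thymus sample was read on a GAII and on a HiSeq instrument (6 sets of reads) and the other samples on a HiSeq alone. The calls analysed here give 1 consensus word per fragment end and cell type, PAD or non-PAD, for 399232 fragment ends. They hold no read counts and no calls per replicate. The depth behind a call is unknown, no error between mice or cultures can be given, and no difference below was tested. Cell types could not be checked against markers, because the calls describe DNA and not RNA.

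Each gene took the call of the fragment end nearest to its midpoint. Such an end begins at an MfeI site or at a site of the second enzyme, NlaIII. Of the 52 ends used, 24 were MfeI sites and 28 were NlaIII sites, and 25 lay between genes, 20 in introns and 7 in exons. Ends are shown for genes of 6 of the 7 combinations of calls described below, since these letters are where the status of each gene was read. They are given from the mm9 sequence (plus strand), with the restriction site in capitals and 20 bases on each side.
Ifnb1, chr4:88166911-88166956: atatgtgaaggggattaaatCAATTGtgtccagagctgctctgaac
Ifna5, chr4:88478433-88478476: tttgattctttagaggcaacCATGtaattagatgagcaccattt
Il17f, chr1:20772403-20772448: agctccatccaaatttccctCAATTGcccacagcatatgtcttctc
Il20, chr1:132810060-132810105: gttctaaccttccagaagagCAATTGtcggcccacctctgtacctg
Il4, chr11:53432322-53432367: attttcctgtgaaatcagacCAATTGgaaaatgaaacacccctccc
Ifng, chr10:117879449-117879494: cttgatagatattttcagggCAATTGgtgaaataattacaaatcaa
Il33, chr19:30017510-30017553: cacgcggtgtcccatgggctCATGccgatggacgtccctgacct
The ends of *Il17f*, *Ifng* and *Il33* lay in introns of these genes, and those of *Ifnb1*, *Ifna5*, *Il20* and *Il4* lay between genes. The end shown for *Ifna5* also served *Ifna7*, *Ifna11*, *Ifna6* and *Ifna4*, so that 48 different ends stood for the 52 genes. The median distance from a midpoint to its end was 2.40 kb, and the largest was 16 kb for *Ifna7*. In 15 genes it was over 5 kb. The model that made the calls joins neighboring ends, so that ends near each other tend to share a call. Within 100 kb on either side there were between 9 and 46 ends (median 25.5). All of these had the same call as the gene itself in each of the 4 cell types for 43 of the 52 genes.

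Ligand genes were more often in PADs than protein-coding genes as a whole in the thymus, but not when 1 cluster of interferon genes was left out. In ESCs, 32 of the 52 genes (61.5%) were in PADs, where 46.6% of all autosomal protein-coding genes were. In NPCs it was 40 genes (76.9%, against 69.4% of all genes). ACs had 20 ligand genes in PADs (38.5%, against 34.9%). In the thymus there were 21 (40.4%, against 25.7%). The type I interferon cluster on Chromosome 4 provided 15 of the genes in every cell type. Among the other 37 ligand genes, 6 (16.2%) were in PADs in the thymus, 17 (45.9%) in ESCs, 25 (67.6%) in NPCs and 5 (13.5%) in ACs. In ACs and thymus these shares lay below those of all genes, and in ESCs and NPCs they were close to them.

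**Figure D1:**
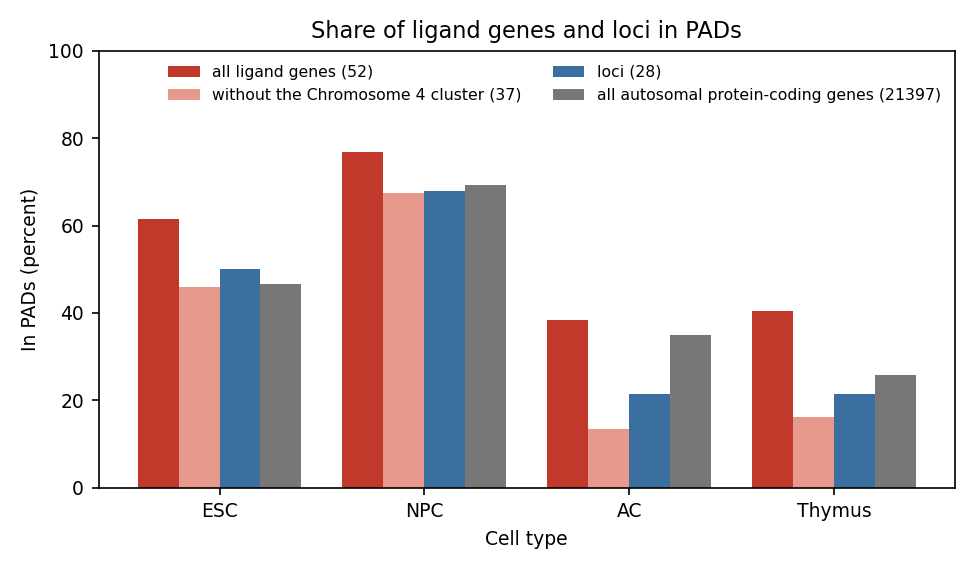
Share of ligand genes in PADs (percent, vertical axis) in each cell type, for all 52 genes, for the 37 outside the interferon cluster on Chromosome 4, for 28 loci counted 1 time each, and for 21397 autosomal protein-coding genes. In ACs and thymus the red bars stand above the gray bars, and the bars without the cluster and for loci stand below them.

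Genes that lie together share a domain and are not separate observations. Joined where neighbors were at most 500 kb apart, the 52 genes formed 28 loci on 14 chromosomes. In the 8 loci with more than 1 gene, which held 32 of the genes, all genes of a locus had the same 4 calls. Counted by locus, 6 of 28 (21.4%) were in PADs in the thymus, 14 (50%) in ESCs, 19 (67.9%) in NPCs and 6 (21.4%) in ACs.

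The 4 calls of a gene formed 7 of the 16 possible combinations. PADs in all 4 cell types held 17 ligand genes (32.7%), against 14.8% of all genes, and 15 of these were the interferon cluster. The others were *Il7* and *Il16*. PADs in ESCs and NPCs with non-PADs in ACs and thymus were found for 12 genes (23.1%, against 12.4%). PADs in NPCs alone held 9 genes (17.3%, against 24.4%). Non-PADs in all 4 cell types held 8 genes (15.4%, against 19.7%). *Il17a*, *Il17f* and *Il15* were in PADs in the thymus alone (5.77%, against 2.9%). *Il12a* and *Ifnk* were in PADs everywhere but in the thymus (3.85%, against 11.3%), and *Il33* was in PADs everywhere but in NPCs (1.92%, against 2.4%). These shares depend on the cluster. Of the 37 genes outside it, 2 (5.41%) were in PADs in all 4 cell types, 12 (32.4%) in ESCs and NPCs, 9 (24.3%) in NPCs alone and 8 (21.6%) in none.

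**Figure D2:**
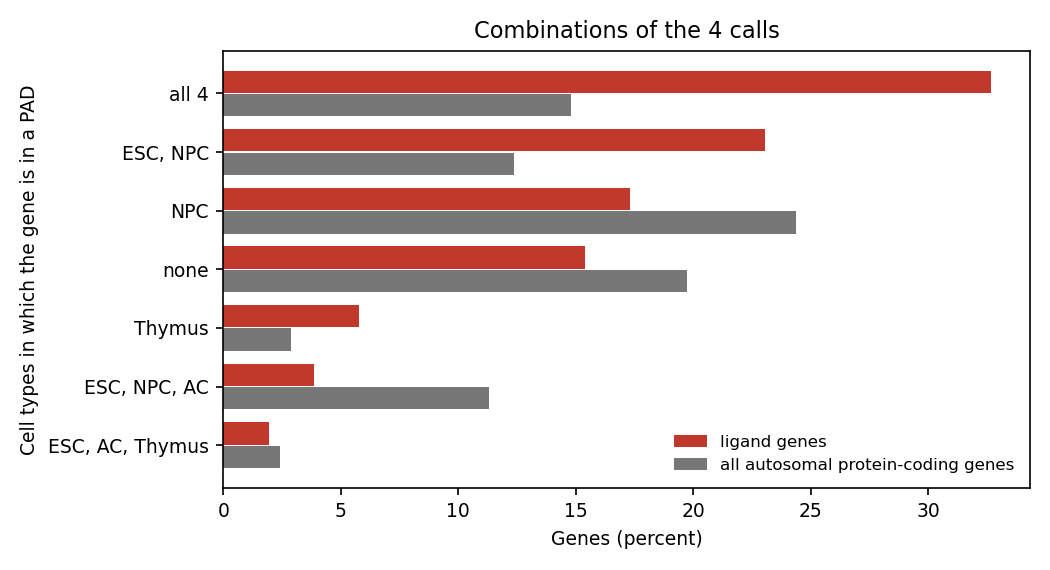
Combinations of the 4 calls, with the percent of the 52 ligand genes (red) and of 21397 autosomal protein-coding genes (gray) on the horizontal axis. The red bar is longer than the gray bar for PADs in all 4 cell types (32.7 against 14.8%) and for PADs in ESCs and NPCs (23.1 against 12.4%).

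Between ESCs and thymus, 14 ligand genes (26.9%) at 10 loci were in PADs in ESCs and in non-PADs in the thymus. The share of all genes with this change was 26.7%. Outside the interferon cluster it was seen for 14 of 37 ligand genes (37.8%), and by locus for 10 of 28 (35.7%). The opposite change was seen for 3 ligand genes (5.77%, against 5.86% of all genes), or 8.11% of those outside the cluster. ESCs and thymus had the same call for 35 of 52 ligand genes (67.3%, against 67.4% of all genes). Outside the cluster they shared the call of 20 of 37 (54.1%). The call was the same in all 4 cell types for 25 ligand genes (48.1%, against 34.5% of all genes). Outside the interferon cluster that count was 10 of 37 (27.0%). ACs and thymus had the most alike calls, with the same call for 47 of 52 ligand genes (90.4%, against 77.8% of all genes). Without the cluster it was 32 of 37 (86.5%). The genes that differed between the 2 were *Il12a*, *Ifnk*, *Il17a*, *Il17f* and *Il15*. NPCs and thymus shared the call of 25 of 52 ligand genes (48.1%, against 41.5%), but of only 10 of 37 (27.0%) without the cluster.

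**Figure D3:**
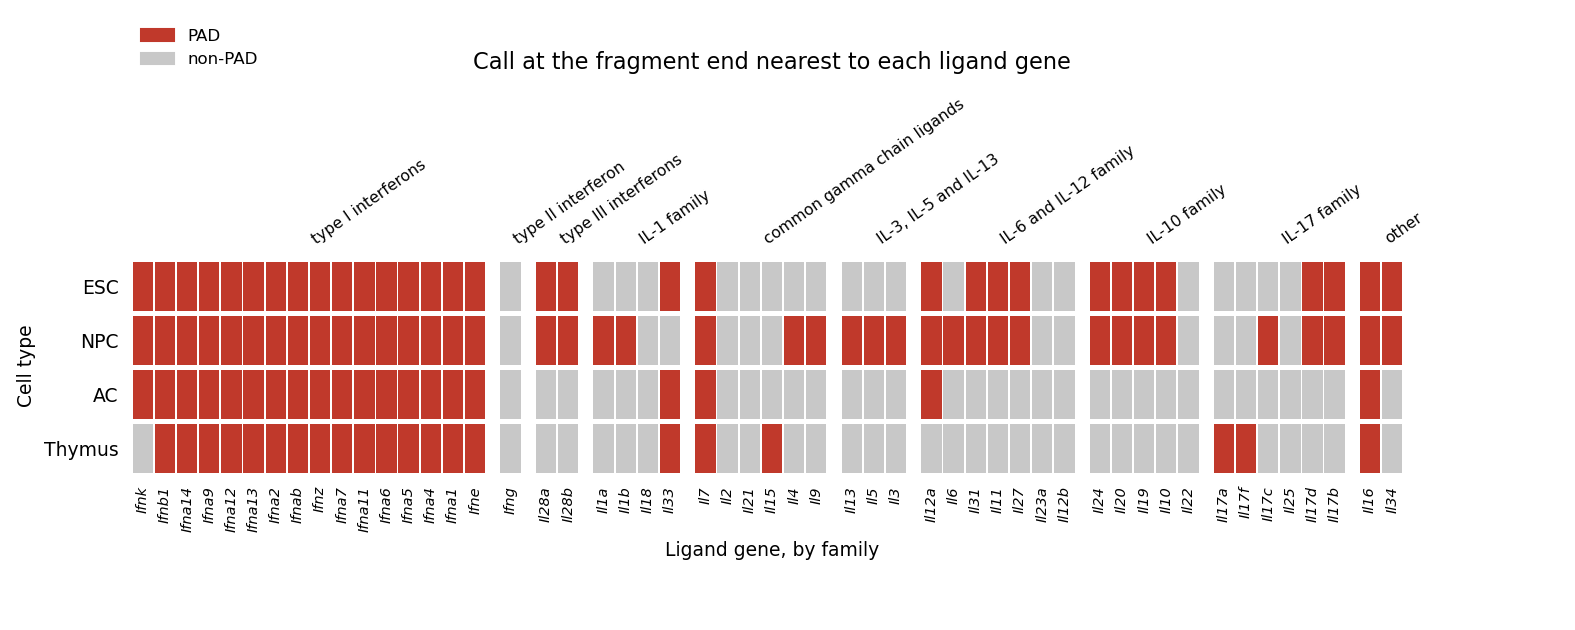
Call of each of the 52 ligand genes (horizontal axis, by family) in ESCs, NPCs, ACs and thymus (vertical axis), with PADs in red and non-PADs in gray. The block of type I interferons is red in all rows but for *Ifnk* in the thymus, and the blocks of the IL-10 family and of the type III interferons are red in ESCs and NPCs and gray in ACs and thymus but for *Il22*, which is gray throughout.

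The type I interferons act through 1 receptor and induce an antiviral state in almost any cell. All 16 genes of this family were in PADs in ESCs, NPCs and ACs, and 15 were in the thymus. Of these, 15 lay in the cluster on Chromosome 4, in which the midpoints spanned 357 kb from *Ifnb1* (88168313) to *Ifne* (88525773). *Ifnb1* encodes interferon beta, *Ifne* an interferon made by the epithelium of the reproductive tract, and *Ifnz* a mouse interferon that has also been called limitin. The other 12 genes, *Ifna1*, *Ifna2*, *Ifna4*, *Ifna5*, *Ifna6*, *Ifna7*, *Ifna9*, *Ifna11*, *Ifna12*, *Ifna13*, *Ifna14* and *Ifnab*, encode interferon alpha. Every one of the 49 fragment ends between *Ifnb1* and *Ifne* was called PAD in all 4 cell types. The same held for all 34 protein-coding genes of the interval, of which 19 were outside the rule. Of these, 16 had *Gm* symbols, among them *Gm12597* and *Gm13280*, which RefSeq names *Ifna15* and *Ifna16*, and *Klhl9*, an adaptor of a ubiquitin ligase, also lay there.

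The PAD around the cluster differed in extent between cell types, but no border came within the cluster. In ESCs it ran from 85012552 to 89948722 (4.94 Mb, with 859 fragment ends and 53 protein-coding genes). In NPCs it covered 78141974 to 89090709 and was the longest, at 10.9 Mb. In ACs it measured 4.29 Mb, from 84894229 to 89188325. The thymus PAD was shifted to the right, from 86896749 to 94357112 (7.46 Mb). The part in common to all 4 cell types ran from 86896749 to 89090709. *Ifne*, the gene nearest to the right border, was 565 kb from it in NPCs, 663 kb in ACs and 1.42 Mb in ESCs. In the thymus *Ifnb1* was the nearest gene to a border, at 1.27 Mb.

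The genes of the cluster are copies of each other to a varying degree. Over 66 pairs, the coding sequences of the 12 interferon alpha genes were between 84.0 and 94.4% identical (median 90.8%). *Ifnb1* was 51.1% identical to them at the median, *Ifnz* 52.5% and *Ifne* 52.5%. *Ifnk*, which encodes the interferon kappa of keratinocytes, was as distant in sequence (median 51.1%) and lay elsewhere on Chromosome 4 (35099305 to 35101254). It was in PADs of 3.38 Mb in ESCs (32296195 to 35676756), 5.52 Mb in NPCs and 2.13 Mb in ACs. In the thymus it lay in a non-PAD of only 74.3 kb (35086624 to 35160971, 16 fragment ends, 2 protein-coding genes), 13.7 kb from the border. This was the smallest domain of any cell type around a ligand gene. The end nearest to *Ifnk* also lay in an intron of *Mob3b*, a longer gene that was itself in PADs in all 4 cell types by its midpoint, 99.8 kb from that of *Ifnk*. The midpoint of the other neighbor, *3110043O21Rik*, lay 55.7 kb away and had the same 4 calls as *Ifnk*. Within 100 kb of *Ifnk*, 44.4% of the ends had its own call in the thymus.

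Promoter windows from RefSeq (GRCm38.p6, 250 bases before and 50 after the start of the gene) were found for 42 of the 52 genes. They were searched on both strands for 2 GAAA stretches separated by any 2 bases, the core of the elements bound by interferon regulatory factors, and for TATAAA, the TATA box, each without regard to overlap with the other. The first motif was present in 10 of 15 promoters of type I interferons (66.7%), in 1 of 27 promoters of the other ligands (3.70%) and in 562 of 16457 autosomal promoters (3.41%). All 10 belonged to interferon alpha genes, which are close copies of each other, so they are not separate observations. The promoters of *Ifnb1*, *Ifne*, *Ifnz*, *Ifnk* and *Ifna13* had no match to this motif. TATAAA was present in 4 of the 15 (26.7%), in 11 of the 27 (40.7%) and in 13.5% of all promoters. Ligand promoters held few CpG dinucleotides, with a median of 3 in 300 bases against 14 in all promoters. The 150 bases before the start, in the direction of the gene and with matches to either motif in capitals, are shown for interferon genes in PADs in all 4 cell types and for the pair in PADs in the thymus alone. Coordinates are those of GRCm38.p6 and cannot be set beside the mm9 coordinates of the calls.
Ifna4, chr4:88841666-88841815, plus strand: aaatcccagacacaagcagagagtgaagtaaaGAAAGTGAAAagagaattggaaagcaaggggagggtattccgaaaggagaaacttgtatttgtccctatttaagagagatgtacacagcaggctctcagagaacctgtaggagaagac
Ifnb1, chr4:88522795-88522944, minus strand: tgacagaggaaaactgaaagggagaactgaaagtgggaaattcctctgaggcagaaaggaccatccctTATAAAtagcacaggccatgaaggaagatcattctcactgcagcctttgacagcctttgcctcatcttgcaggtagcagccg
Il17a, chr1:20730755-20730904, plus strand: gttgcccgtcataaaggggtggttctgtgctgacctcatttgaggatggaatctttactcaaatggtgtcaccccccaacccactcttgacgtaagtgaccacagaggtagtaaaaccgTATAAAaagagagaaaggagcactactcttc
Il17f, chr1:20784271-20784420, minus strand: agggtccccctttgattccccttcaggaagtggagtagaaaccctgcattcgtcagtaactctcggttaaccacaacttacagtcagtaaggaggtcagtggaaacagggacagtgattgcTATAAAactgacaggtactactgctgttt
A match describes the letters of these windows only and does not show a bound site.

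Interferon gamma, the type II interferon of T cells and natural killer cells, showed the opposite status to the type I cluster. *Ifng* and *Il22*, which encodes a cytokine that acts on epithelia, lie 236 kb apart on Chromosome 10 and were in non-PADs in all 4 cell types. The non-PAD ran from 117429565 to 118584076 in ESCs (1.15 Mb) and from 116330354 to 118082288 in NPCs (1.75 Mb). It was wider in ACs (115565926 to 118386978, 2.82 Mb) and widest in the thymus (114368511 to 118355182, 3.99 Mb). *Il22* was 215 kb from the border in ESCs and *Ifng* 202 kb in NPCs. The type III interferons protect epithelial surfaces and are represented by *Il28a* and *Il28b* (*Ifnl2* and *Ifnl3* in RefSeq), whose coding sequences were 97.1% identical. Both were in PADs in ESCs (26895411 to 30879839 on Chromosome 7, 3.98 Mb) and in NPCs (26987880 to 31136119, 4.15 Mb). In ACs and thymus they were in non-PADs of 2.11 Mb (27901586 to 30008022) and 4.29 Mb (27820012 to 32113999). The pair thus lay in domains of about the same size in ESCs and thymus, with opposite calls.

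The IL-1 family comprises cytokines of inflammation and tissue damage. *Il1a* and *Il1b*, 63.1 kb apart on Chromosome 2, were in a PAD in NPCs alone. It measured 395 kb (129072666 to 129467763) and held 5 protein-coding genes. *Il1a* was 57.9 kb from its border, and the genes beyond it, *Slc20a1*, *Chchd5*, *Polr1b* and *Ttl*, were in non-PADs in all 4 cell types. The non-PADs around the pair measured 2.22 Mb in ESCs (128115238 to 130332197), 6.36 Mb in ACs (124346370 to 130709883) and 9.56 Mb in the thymus (123931441 to 133492330). *Il18*, which promotes interferon gamma production, was in non-PADs in all 4 cell types. *Il33*, an alarmin of barrier cells, was the only ligand gene in PADs in ESCs, ACs and thymus and in a non-PAD in NPCs. Its PADs measured 2.48 Mb in ESCs (29475851 to 31958951 on Chromosome 19), 2.35 Mb in ACs and 2.34 Mb in the thymus. The NPC non-PAD was 154 kb long (29977955 to 30131618) and contained 19 fragment ends. Of 8 protein-coding neighbors within 250 kb of *Il33*, only *Trpd52l3* had the same 4 calls, and the other 7 were in PADs throughout.

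The cytokines that signal through the common gamma chain maintain and expand lymphocytes. *Il7*, which thymocytes and B cell precursors need to survive, was in PADs in all 4 cell types. Its PADs measured 5.60 Mb in ESCs, 4.26 Mb in NPCs, 1.16 Mb in ACs and 5.49 Mb in the thymus. The gene lies 4.57 Mb from the first called end of Chromosome 3. *Il7* and *Il11* (1.69 Mb from the first called end of Chromosome 7) were the only ligand genes within 10 Mb of the centromeric end of a chromosome. *Il2*, the growth factor of T cells, and *Il21*, a product of follicular helper T cells, lie 104 kb apart on Chromosome 3 and were in non-PADs throughout. The non-PADs covered 35895856 to 38953189 in ESCs, 36092702 to 38946895 in NPCs, 35138176 to 39008888 in ACs and 33388513 to 37943260 in the thymus, with sizes of 3.06, 2.85, 3.87 and 4.55 Mb. *Il15*, which sustains natural killer cells and memory T cells, was in a PAD in the thymus alone (83860596 to 85447999 on Chromosome 8, 1.59 Mb). This PAD held only 3 protein-coding genes, and *Il15* had no protein-coding neighbor within 250 kb. *Il9*, a cytokine of mast cell and mucosal responses, was in PADs in NPCs alone, 71.9 kb from a border.

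The genes for the cytokines of T helper 2 cells lie together on Chromosome 11. *Il4* drives the switch of B cells to IgE, *Il13* the production of mucus and *Il5* the growth of eosinophils. *Il3*, a growth factor of hematopoietic progenitors, lies 543 kb to the right of *Il5* and was therefore counted as its own locus. All 4 genes were in a PAD in NPCs and in non-PADs in the other cell types. The NPC PAD was 8.25 Mb long (46955991 to 55206141) and contained 137 protein-coding genes. The ESC non-PAD measured 1.42 Mb (52891987 to 54316748), the AC non-PAD 3.90 Mb (51006967 to 54908538) and the thymus non-PAD 7.71 Mb (48199598 to 55910599). All protein-coding neighbors within 250 kb of *Il4*, *Il13*, *Il5* and *Il3* had the same 4 calls as these genes, *Irf1*, a transcription factor of interferon responses, among them.

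The IL-6 and IL-12 family contains cytokines of fever, hematopoiesis and T cell differentiation. The subunits of IL-12 and IL-23, which direct T helper 1 and T helper 17 cells, were split. *Il12b*, the subunit that both share, and *Il23a* were in non-PADs in all 4 cell types, whereas *Il12a* was in PADs in ESCs (856 kb), NPCs (723 kb) and ACs (326 kb) and in a non-PAD of 1.35 Mb in the thymus. *Il6* was in PADs in NPCs alone. *Il11*, *Il27* and *Il31* were in PADs in ESCs and NPCs. *Il11*, which acts on bone and megakaryocytes, lay in the longest PAD around any ligand gene, 13.7 Mb in ESCs (3037569 to 16755688 on Chromosome 7). This PAD began at the first called end of the chromosome and contained 234 protein-coding genes. *Il31*, the cytokine of itch, lay in an ESC PAD of only 298 kb (123872228 to 124170017 on Chromosome 5), 59.2 kb from its border, and in non-PADs of 15.8 Mb in ACs and 15.5 Mb in the thymus. The longest domain of all was the thymus non-PAD around *Il27*, at 27.6 Mb (116035157 to 143597865 on Chromosome 7, 318 protein-coding genes). In ACs, *Il27* was 19.1 kb from a border. Of 28 neighbors within 250 kb, 12 shared its 4 calls, and the other 16, all to its right, were also in PADs in ACs.

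The IL-10 family dampens inflammation (*Il10*) and acts on skin and mucosa (*Il19*, *Il20* and *Il24*). These 4 genes lie within 138 kb on Chromosome 1. They were in PADs in ESCs and NPCs and in non-PADs in ACs and thymus, which left *Il22* as the only member of the family with other calls. The ESC PAD was a separate block of 1502 kb (132040135 to 133542611, 22 protein-coding genes). The NPC PAD measured 5.62 Mb (130646279 to 136263894). The non-PADs ran from 132240314 to 139768327 in ACs (7.53 Mb) and from 131099281 to 139716521 in the thymus (8.62 Mb). All neighbors of these genes within 250 kb had the same 4 calls.

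The IL-17 family recruits neutrophils and defends against fungi and bacteria at epithelia. *Il17a* and *Il17f*, the products of T helper 17 cells, lie 48.0 kb apart on Chromosome 1, and their coding sequences were 59.4% identical. They were in non-PADs in ESCs, NPCs and ACs and in a PAD in the thymus. The non-PADs measured 1.87 Mb in ESCs (20501293 to 22370315), 343 kb in NPCs (20577827 to 20921072) and 1.11 Mb in ACs (20579517 to 21693378). The thymus PAD was 6.89 Mb long (14939775 to 21832004, 1113 fragment ends, 37 protein-coding genes), and both genes were more than 1 Mb inside it. *Il17a* was 1.11 Mb and *Il17f* 1.06 Mb from the border. The neighbors *Mcm3*, a subunit of the replicative helicase, and *Paqr8* had the same 4 calls. The other members differed. *Il17b* and *Il17d* were in PADs in ESCs and NPCs, *Il17c* was in PADs in NPCs alone, and *Il25*, which elicits type 2 responses, was in non-PADs throughout. *Il17b* lay in a PAD of 1.78 Mb in ESCs and a non-PAD of 10.6 Mb in the thymus, but in short domains in NPCs (a PAD of 275 kb) and ACs (a non-PAD of 136 kb with 21 fragment ends). Its midpoint was 148 kb from the border in ESCs and 2.75 kb in ACs. *Il17c* lay in a thymus non-PAD of 13.9 Mb.

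Of the remaining ligands, *Il16* attracts CD4 cells and *Il34* maintains microglia and Langerhans cells. *Il16* was in PADs in all 4 cell types. Its PAD was shortest in the thymus (617 kb, 90286348 to 90903785 on Chromosome 7), and the midpoint of the gene was 66.0 kb from the border there. The neighbors beyond this border, *Gm7964*, *1700026D08Rik*, *Mesdc1* and *Mesdc2*, were in non-PADs in the thymus. *Il34* was in PADs in ESCs and NPCs.

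**Figure D4:**
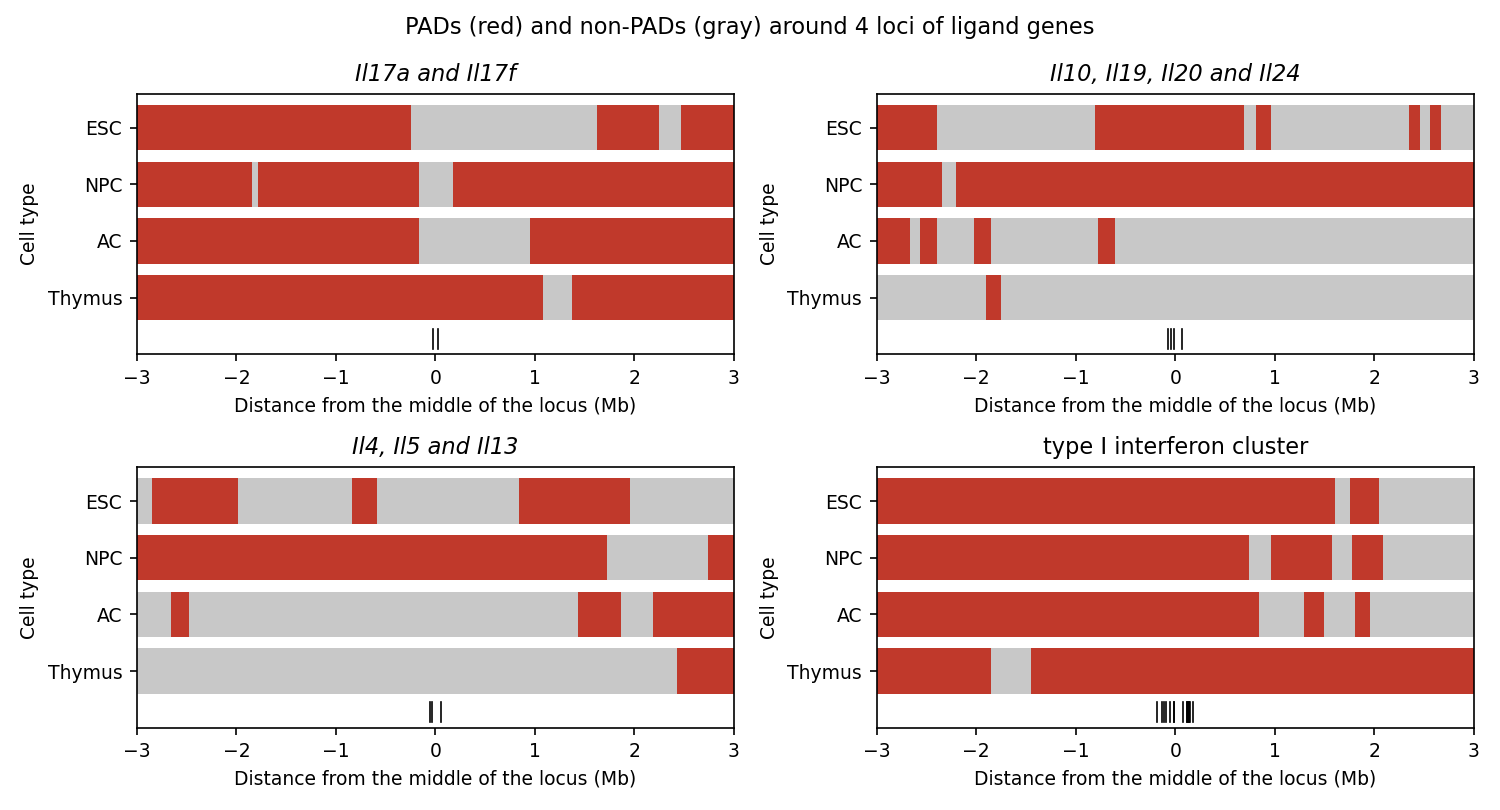
PADs (red) and non-PADs (gray) within 3 Mb of the middle of 4 loci (horizontal axis, Mb) in ESCs, NPCs, ACs and thymus (vertical axis), with the midpoints of the ligand genes as black lines below. The interferon cluster is in red in all 4 rows, *Il17a* and *Il17f* in the thymus row alone, *Il4*, *Il5* and *Il13* in the NPC row alone, and *Il10*, *Il19*, *Il20* and *Il24* in the ESC and NPC rows.

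No gene of the interferon cluster was close to a border, and this lowered the share of ligand genes that were. Within 100 kb of a border there was 1 ligand gene in ESCs (*Il31*, 1.92%, against 15.1% of all genes), 4 in NPCs (*Il1a*, *Il18*, *Il9* and *Il33*, 7.69%, against 12.3%), 3 in ACs (*Il27*, *Il17d* and *Il17b*, 5.77%, against 11.7%) and 2 in the thymus (*Ifnk* and *Il16*, 3.85%, against 8.14%). Among the 37 genes outside the cluster these shares were 2.70%, 10.8%, 8.11% and 5.41%. In NPCs, ACs and thymus they lay slightly below those of all genes, and in ESCs, with 1 gene, farther below. In the thymus the median ligand gene in a PAD was 1.39 Mb from a border, where the median of all genes in PADs was 0.521 Mb. The cluster set this value, and the median of the 6 other ligand genes in thymus PADs was 737 kb. The non-PADs around ligand genes in the thymus had a median size of 7.71 Mb (all genes in non-PADs, 5.97 Mb). Such medians count a domain 1 time for each gene in it. The 31 ligand genes lay in only 21 thymus non-PADs. The median was the size of the domain around *Il4*, *Il13*, *Il5* and *Il3*, counted for each of them. In ESCs, the non-PADs around ligand genes were shorter, with a median of 2.04 Mb (all genes, 2.75 Mb). There, 20 ligand genes lay in 13 non-PADs.

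**Figure D5:**
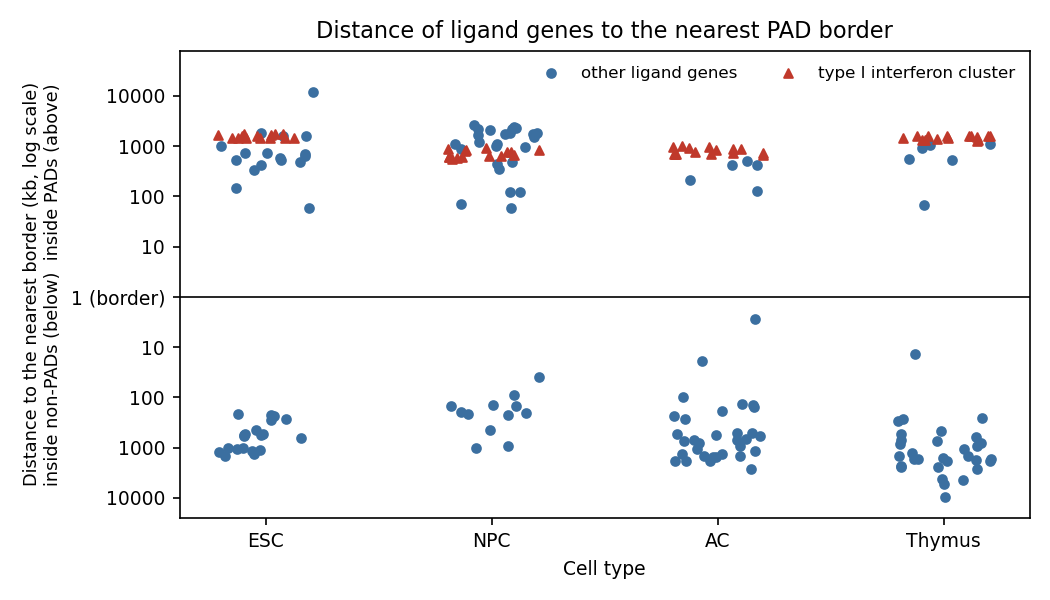
Distance of each of the 52 ligand genes to the nearest domain border (kb, log scale) in ESCs, NPCs, ACs and thymus, upward for genes in PADs and downward for genes in non-PADs. The genes of the interferon cluster (triangles) sit between 565 kb and 1.78 Mb inside PADs, and only *Il17b* in ACs is within 10 kb of a border.

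The genes next to the ligands mostly had the same status. Over 627 pairs of a ligand gene and a protein-coding neighbor within 250 kb, the 4 calls were identical in 580 (92.5%). Outside the interferon cluster they were identical in 312 of 359 pairs (86.9%), and over all autosomal protein-coding genes in 79.5% of the pairs. A neighbor was counted again for each ligand gene near it, inside the cluster and outside it. The 627 pairs held 296 different neighbors and are not separate observations, and the difference between these shares was not tested. The ligand gene and all its neighbors had the same calls for 38 of the 51 genes with a neighbor. The sequence around ligand genes was similar in base composition to that of other genes, with a median GC content of 44.0% within 100 kb against 44.4%. The ligand genes in PADs in all 4 cell types lay in sequence of 42.8% GC at the median, against 40.0% for all genes with this combination. This median was the value of *Ifnab*, since 15 of the 17 genes were the interferon cluster, where the windows overlap. The other genes, *Il7* (38.2%) and *Il16* (44.6%), lay on either side of 40.0%.

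The share of receptor genes in PADs was below that of all genes in ESCs, NPCs and ACs and close to it in the thymus. Of 44 receptor genes, 12 (27.3%) were in PADs in the thymus, 12 (27.3%) in ESCs, 28 (63.6%) in NPCs and 7 (15.9%) in ACs, against 25.7%, 46.6%, 69.4% and 34.9% of all genes. Receptor genes that lie together were counted 1 by 1 and not joined into loci, so they are not separate observations. *Ifnar1* and *Ifnar2*, the chains of the type I interferon receptor, were in non-PADs in all 4 cell types, where the interferons of the cluster were in PADs. The receptor chains *Il10ra*, *Il10rb* and *Il28ra* were also in non-PADs throughout, unlike *Il10*, *Il28a* and *Il28b*. *Ifnar2*, *Il10rb* and *Ifnar1* lie close together on Chromosome 16 (91373028 to 91507686), so their calls are not separate contrasts. *Il23r* was in PADs in all 4 cell types, whereas *Il23a* and *Il12b* were in non-PADs. *Il17ra* was in PADs in ESCs and NPCs, *Il2ra*, the alpha chain of the IL-2 receptor, in NPCs and thymus, *Il1rl1*, the receptor of IL-33, in the thymus alone, and *Ifngr1* in ESCs alone. *Il7r* was in PADs in all 4 cell types, as was *Il7*. Of 26 signalling genes downstream of the receptors (the *Jak*, *Stat*, *Irf* and *Socs* genes, *Tyk2*, *Cish*, *Myd88* and *Traf6*), 6 (23.1%) were in PADs in ESCs, 19 (73.1%) in NPCs, 4 (15.4%) in ACs and 1 (3.85%, *Traf6*) in the thymus. The last count was 3 when genes were placed by their start. Signalling genes that lie together, such as *Stat5a* and *Stat5b*, were also counted 1 by 1. Among 14 transcription factors of lymphocyte lineages, 3 (21.4%) were in PADs in the thymus (*Gata3*, *Ikzf1* and *Ahr*) and 5 (35.7%) in ACs (these 3, *Maf* and *Rora*). In NPCs there were 10 (71.4%) and in ESCs 4 (28.6%). The shares in thymus, ACs and NPCs were close to those of all genes (25.7%, 34.9% and 69.4%), and that in ESCs was lower (46.6% of all genes). The ESC count depended on placement, with 5 of the 14 genes by their start and 6 by any overlap with a PAD.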

How the data were processed

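Sat4C reads came from thymus, ESCs, NPCs and ACs. The authors mapped them to 4C fragment ends (mm9, Chromosome Y left out), fitted a hidden semi-Markov model with 2 states to each replicate and combined replicates by majority vote, with pooled reads for ties. The deposited table holds the resulting words (PAD or nPAD) for 399232 fragment ends in 4 columns, and no counts. The aligner was not given in the sources used here.

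Runs of equal calls were joined into domains, with borders midway between ends of different calls. A gene took the call of the end nearest to the middle of its longest transcript (GENCODE vM1, NCBIM37). Domain sizes, distances, neighbors and shares were computed with numpy 2.4.6, pandas 2.3.3 and pysam 0.24.0 (Python 3.11.15), and coding sequences were aligned with biopython 1.88. The placement was tested on simulated calls. Identity was computed on coding sequences and not on proteins, as had been planned. Shares stand beside those of all autosomal protein-coding genes, and no statistical test was made, since each cell type has 1 column of calls.

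The genes, the lists and the comparisons were chosen with earlier results of these data known. All ligand genes are named with their calls. Domain coordinates are given for loci of more than 1 gene, the 5 genes closest to a border in ESCs or thymus and the 5 in the largest and smallest domains, without those of Chromosome 18. Of receptors and neighbors, those whose calls differ from those of the ligand are named. *Il7r*, the genes in counts of 5 or fewer, *Mcm3*, *Paqr8*, *Trpd52l3*, *Klhl9*, *Irf1* and the domain values of other genes were added after their values were seen, and so was the search for promoter motifs.
The status of some neighbors and signalling genes is not reported here. Shares of border distances and of neighbors outside the interferon cluster were also added after seeing the data.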

Additional observations from a re-analysis of the deposited data

How the results depend on the processing

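No ligand gene changed its call (0 of 52) when genes were placed by the transcription start site, by the midpoint of the gene span or by any overlap with a PAD, when runs under 5 fragment ends were absorbed, or when the majority of ends within 50 kb was taken. The results turned on how the interferon cluster was counted. Without it, 17, 25, 5 and 6 genes were in PADs in ESCs, NPCs, ACs and thymus, and 2 were in PADs in all 4. With each locus counted 1 time, 14, 19, 6 and 6 loci were in PADs, and 3 in all 4. Without the genes over 5 kb from a fragment end, 4 genes instead of 9 were in PADs in NPCs alone, and with NPCs left out 17 instead of 8 were in non-PADs in every cell type used. For the signalling genes in thymus PADs the count was 3 instead of 1 by start site, and also 3 by overlap. The other 144 values computed under alternatives were within 1.5 times of those reported. Where genes were left out or added, counts and not shares were compared. The count of genes in PADs in ESCs and in non-PADs in the thymus stayed at 14 without the cluster. Its share rose from 26.9 to 37.8%. No paired analysis was possible because the columns are consensus calls and carry no replicate, and for the same reason no replicate could be left out. The depth behind a call is unknown.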

Other observations

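A second group of cytokine genes of the IL-1 family lay outside the symbol rule and was looked at as an alternative. *Il1f8*, *Il1f9*, *Il1f6*, *Il1f5*, *Il1f10* and *Il1rn*, which encode the IL-36 cytokines, their relatives and the antagonist of the IL-1 receptor, form a row on Chromosome 2 from 24008681 (*Il1f8*) to 24207014 (*Il1rn*). All 6 were in PADs in ESCs, NPCs and ACs, whereas *Il1a* and *Il1b* on the same chromosome were in a PAD in NPCs alone. In the thymus a border crossed the row at 24089596. *Il1f8*, *Il1f9* and *Il1f6* were in a PAD of 5.03 Mb to its left, and *Il1f5*, *Il1f10* and *Il1rn* were in a non-PAD of 12.4 Mb to its right. *Il1f6* was 13.5 kb and *Il1f5* 46.1 kb from this border. *Iltifb*, the copy of *Il22* beside it on Chromosome 10, was in non-PADs in all 4 cell types, as was *Il22*. With these 7 genes added, 40.7% of 59 genes were in PADs in the thymus, 64.4% in ESCs, 78.0% in NPCs and 44.1% in ACs. The shares of all autosomal protein-coding genes were 25.7%, 46.6%, 69.4% and 34.9%. The 59 genes still contain the interferon cluster, and 6 of the 7 added genes are the row on Chromosome 2. These shares therefore count genes of the same domain again and are not separate observations.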
